A study of Mus musculus with 13 samples.

Results

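Melanomas labelled Cdkn2a/Braf/Lkb1 were compared with melanocytic proliferations labelled Lkb1/Braf. The members were chosen by these labels alone, 2 melanoma arrays and 3 proliferation arrays, which are 5 of the 13 Affymetrix arrays in the mouse series. The labels give every one of the 5 as uncultured tissue, the samples of a group as biological replicates, and the proliferations as pooled material with the number of lesions in a pool not stated. Both groups share the alterations of Braf and Lkb1, and by the labels the melanomas carry in addition the alteration of Cdkn2a. Because the lesion type changes together with the genotype, Cdkn2a status, being a melanoma and pooling cannot be told apart. A further 2 arrays of Cdkn2a/Braf melanoma, which lack the Lkb1 alteration by label, serve as a reference. The other 6 hold sorted melanocytes, 2 arrays each of Cdkn2a/Braf cells at day 19 and at day 50 and Cdkn2a-only cells at day 19. The sources used here do not state the strain, the age of the animals with lesions, the kind of alteration or the cell type that carries it. Nor do they state whether replicates came from separate mice, so the p-values measure the spread between samples only. That spread was estimated within the 6 groups of all 13 arrays together, sorted melanocytes included.

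Cdkn2a encodes an inhibitor of the cyclin D kinases, which keeps RB active and E2F target genes low, and, from another reading frame, Arf, which restrains Mdm2 and so stabilises p53. Lkb1 is the kinase made from Stk11. It activates AMPK and the AMPK-related kinases, and AMPK restrains mTORC1, the kinase complex that couples nutrients to growth. Activated Braf drives the MAPK cascade, and in melanocytes it can give a naevus whose cells later stop dividing. Pigment cells arise from the neural crest, and melanomas can lose pigment genes and express neural or mesenchymal ones.

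Levels below are log2(intensity + 1), differences are melanoma minus proliferation in log2 units, SE is the standard error of a difference, and adjusted p-values are limma's after Benjamini-Hochberg adjustment over 19937 genes. A gene rose or fell where the adjusted p was under 0.05. In all, 3991 genes rose (20.0%) and 4099 fell (20.6%), with a median difference of -0.04, and 1789 rose and 867 fell by at least 1. These shares are the background against which every count below is read. Of all genes, 69.8% did not overlap between the 2 groups, so a lack of overlap is common here and says little by itself. Replicates were close, with a median SD over genes of 0.14 in each group, but the spread of levels over genes was wider in the melanomas (interquartile ranges of 2.89 and 2.71) than in the proliferations (2.00 to 2.11). The split of calls depended on the scaling: the higher genes were 49.3% of those called as reported, 63.2% with each array centred on its median and 65.5% with a common median and interquartile range, where 5111 genes rose and 2688 fell, and filters on dim genes gave 73.9% (above the median level) and 59.8% (log2 above 6 in 2 arrays). Median centring moved the median of all genes from -0.04 to 0.07 and the common range moved it to 0.16, so a list's median is best read against these values. Sex differed completely with the group: Xist, the RNA of the inactive X chromosome, was 4.42 and 4.53 in the melanomas and 10.56, 10.47 and 10.98 in the proliferations, and the Y-linked Eif2s3y was 8.21 and 7.47 in the melanomas and 3.41, 3.48 and 3.29 in the proliferations. An effect of sex and one of genotype or lesion cannot be told apart here.

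None of the targeted genes passed the test. Cdkn2a was 6.42 and 6.47 in the melanomas and 6.62, 6.60 and 6.24 in the proliferations, and its groups overlapped (difference -0.04, SE 0.15, adjusted p = 0.835). Stk11 was 8.36 and 7.86 in the melanomas and 8.09, 8.23 and 8.36 in the proliferations (difference -0.12, SE 0.35, adjusted p = 0.806), with overlap. Braf was 8.29 and 8.36 in the melanomas and 8.05, 7.97 and 8.17 in the proliferations, without overlap but short of the threshold at 0.26 (SE 0.11, adjusted p = 0.0895), and it passed with median centring (0.38), while quantile normalization turned its sign (-0.28). Since no source used here places the probes inside or outside the altered sequence, these levels check none of the genotypes.

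The 12 largest increases include a pair of neurofilament genes and several matrix genes, and the 12 largest decreases, which Xist leads, include keratins. Nefm, a neurofilament subunit, was 9.94 and 10.65 in the melanomas and 4.34, 4.34 and 4.07 in the proliferations, a difference of 6.04 (SE 0.56, adjusted p = 5.93e-05). Mmp1a, an interstitial collagenase, was 8.94 and 10.73 in the melanomas and 4.65, 4.16 and 4.32 in the proliferations (difference 5.46, SE 0.40, adjusted p = 2.18e-05). Tac1, the precursor of substance P, was 9.12 and 8.68 in the melanomas and 3.51, 3.47 and 3.38 in the proliferations (difference 5.45, SE 0.61, adjusted p = 0.000178). Every one of these melanoma values lies more than 4 log2 units above every proliferation value. No detection values were used here, so genes as low as these in the proliferations may lie at background there, no fold is given for them, and their differences and order rest on low levels. The other increases among the first 12 were the uncharacterised 1700012B09Rik (4.81, SE 0.21), the uridine phosphorylase Upp1 (4.61, SE 0.25), Brinp3 (4.55, SE 0.30), Eif2s3y (4.45, SE 1.27), the neurofilament subunit Nefl (4.38, SE 0.70), the matrix glycoprotein tenascin C encoded by Tnc (4.25, SE 0.23), the chloride channel Cftr (4.22, SE 0.68), the growth cone protein Gap43 (4.16, SE 0.57) and the protease inhibitor Timp1 (4.14, SE 0.42). Of the first 12 decreases, Xist led at -6.20 (SE 1.64), and the other 11 include the keratins Krt77 (-6.02, SE 1.08), Krt15 (-5.96, SE 0.62), Krt25 (-5.75, SE 0.54) and Krt5 (-5.69, SE 0.93), the epidermal Krtdap (-6.13, SE 1.53) and the hair sheath protein Tchh (-5.59, SE 0.42). Ly6g6c, Spink5, Dsc3, Serpinb5 and Defb6 fell by 5.55, 5.64, 5.37, 5.29 and 5.17. Krtdap did not pass without melanoma 1 (-4.97). Leaving out either melanoma also ended the calls of Xist (-6.14 and -6.25) and Eif2s3y (4.07 and 4.82). The SEs of these genes hold the spread within all 6 groups. Replicate SDs in the melanomas and proliferations were 0.08 and 0.27 for Xist and 0.53 and 0.09 for Eif2s3y.

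**Figure D1:**
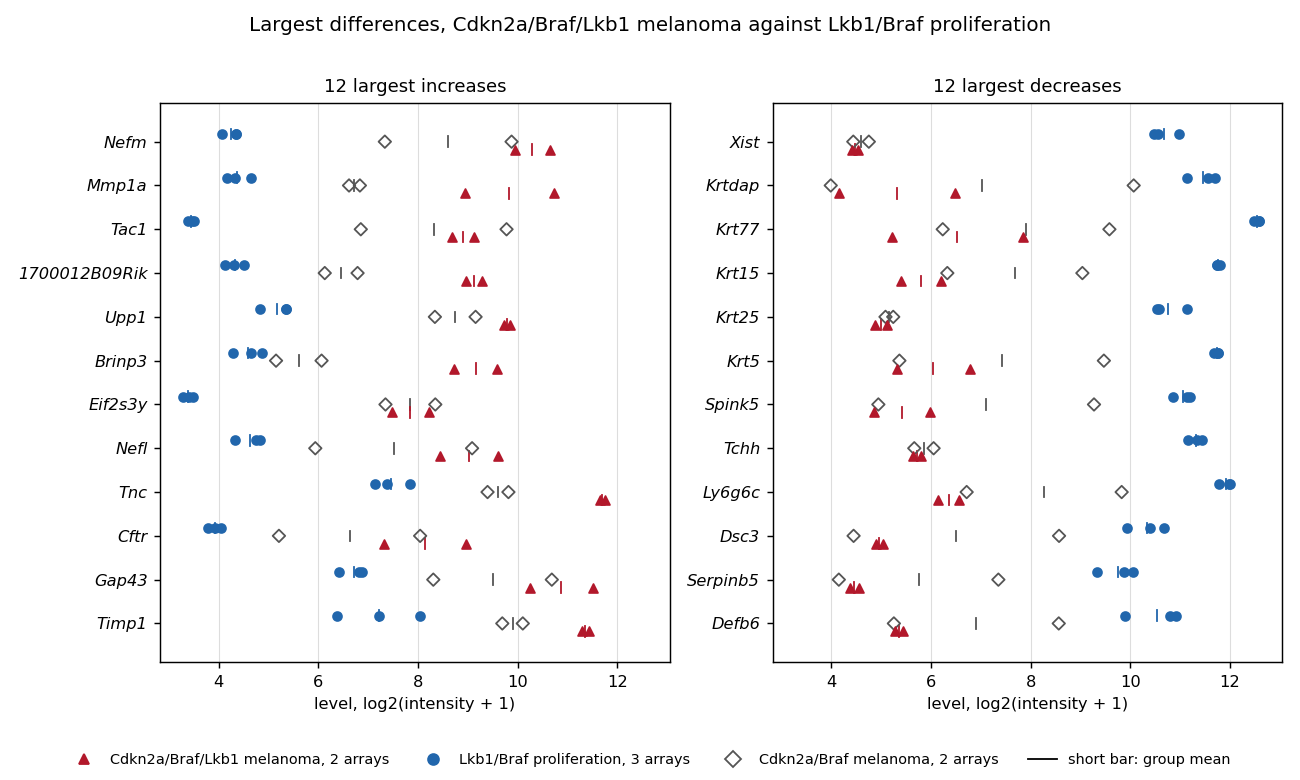
Level in log2(intensity + 1) on each tissue array (horizontal axis) for the 12 largest increases and 12 largest decreases (vertical axis), with triangles for Cdkn2a/Braf/Lkb1 melanoma, circles for Lkb1/Braf proliferation, open diamonds for Cdkn2a/Braf melanoma and short bars for group means. Only genes whose triangles and circles do not overlap were eligible. The 2 diamonds of several epidermal genes lie far apart, as for Krtdap at 3.99 and 10.07.

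**Figure D2:**
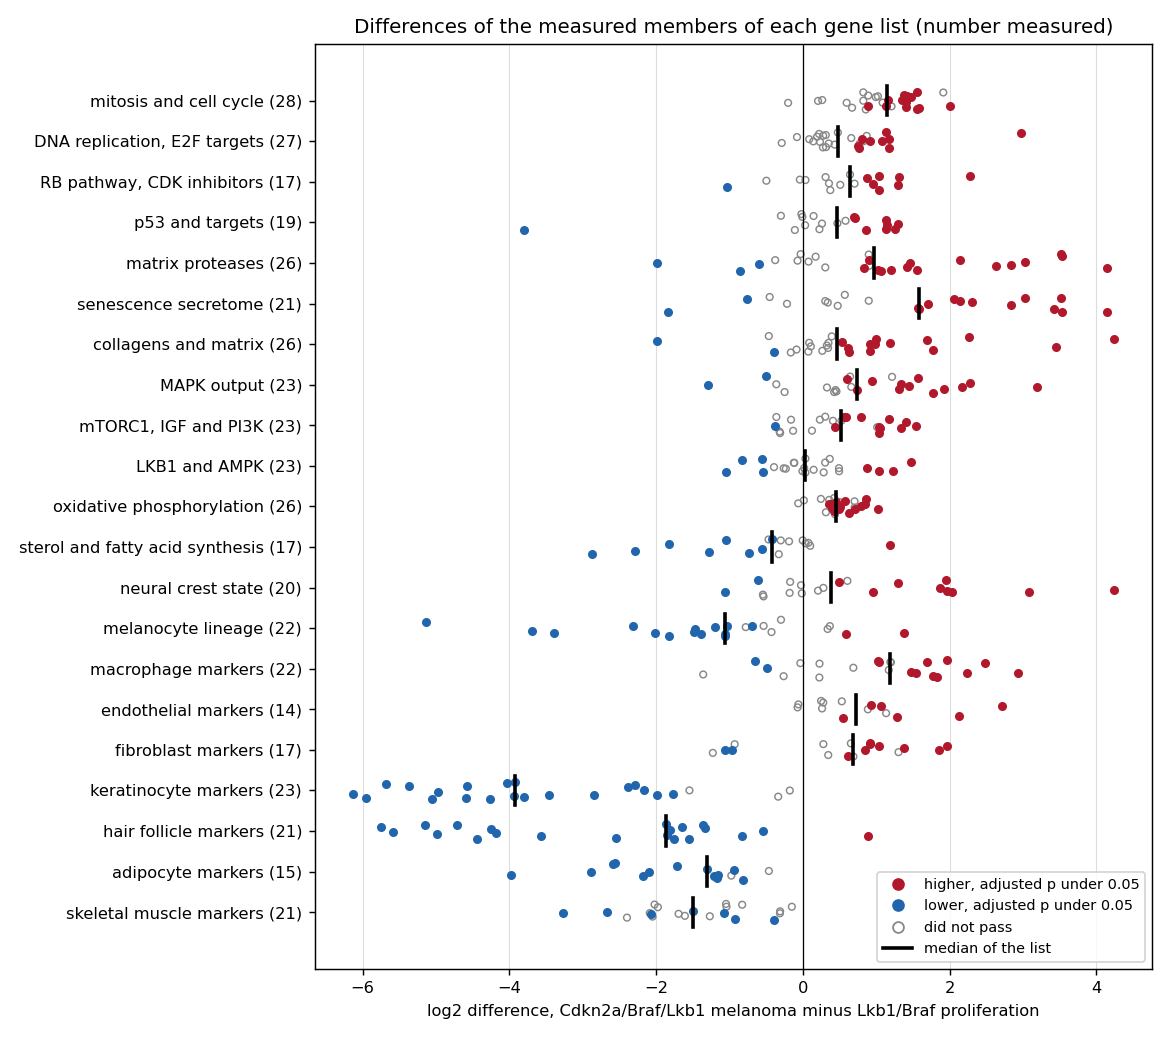
Log2 difference between Cdkn2a/Braf/Lkb1 melanoma and Lkb1/Braf proliferation (horizontal axis) for each measured member of 21 gene lists (vertical axis, number measured in brackets), filled red where higher and blue where lower at adjusted p under 0.05, open where the test was not passed, with a black bar at the list's median. Medians run from -3.92 for keratinocyte markers to 1.58 for the senescence secretome.

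Markers of skin cells other than melanocytes differed widely between the groups, and these values stand beside every result below. Of 23 keratinocyte markers 20 fell and none rose, with a median of -3.92, and the summed intensity of the list was 1936 to 2863 in the melanomas and 34070 to 38440 in the proliferations. Krt14, the basal keratin, was 6.17 and 7.30 in the melanomas and 11.87, 11.78 and 11.72 in the proliferations, and Trp63, the transcription factor of basal epidermis, was 5.81 and 6.58 in the melanomas and 10.08, 10.14 and 10.12 in the proliferations (difference -3.92, SE 0.35, adjusted p = 5.49e-05). Neither overlapped between the groups. The exceptions were Itgb4 (-0.34, SE 0.18, adjusted p = 0.157, or -0.68 and passing without melanoma 1), Krt6b (-0.18, SE 0.64, adjusted p = 0.836) and Krt16 (-1.55, SE 0.90, adjusted p = 0.189). Krt16 passed in the limma fit on the 5 compared arrays alone (adjusted p = 0.000371). Keratins are a family of similar genes whose probes may cross-hybridise, which the sources used here do not allow to be checked. Of 21 hair follicle markers 20 fell and 1 rose (median -1.87, summed intensity 2417 to 2530 against 11580 to 15920), among them Krt71 of the inner root sheath at -5.15 (SE 0.48) and the keratin-associated Krtap6-2 at -4.99 (SE 0.19). In the sebaceous list 9 of 11 fell and 1 rose (median -1.60), including Far2, which makes wax alcohols, at -3.76 (SE 0.62).

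Fat markers were lower as well, with 13 of 15 falling, none rising and a median of -1.31. Adipoq, the hormone of fat cells, was 8.38 and 5.92 in the melanomas and 10.87, 11.14 and 11.39 in the proliferations, and summed intensities of the fat list were 1971 to 3351 in the melanomas and 8605 to 11510 in the proliferations. Skeletal muscle differed among replicates: Myh4, a fast myosin, was 5.26 and 7.65 in the melanomas and 7.02, 11.19 and 10.96 in the proliferations, so the groups overlapped through proliferation 1, which was below melanoma 2. Of 21 muscle markers 7 fell (3 under quantile normalization), a count that ran from 1 without melanoma 1 to 14 without proliferation 1. In bulk tissue, fewer cells of a type and less RNA per cell cannot be told apart. How far these cell types contribute to the differences below was not tested. No probe set of any marker list is at 0, since the lowest deposited value is 3.35.

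Markers of blood vessels, stroma and macrophages were higher in the melanomas in part. Of 22 macrophage markers 11 rose and 2 fell (median 1.18), and the list summed to 13730 to 17290 in the melanomas and 8843 to 10130 in the proliferations. The scavenger receptor Msr1 was 9.60 and 9.28 in the melanomas and 6.55, 6.49 and 6.48 in the proliferations (7.62-fold, adjusted p = 3.72e-06). The complement gene C1qa was 10.36 and 9.58 in the melanomas and 7.68, 7.50 and 7.28 in the proliferations (difference 2.48, SE 0.47, adjusted p = 0.00281). Csf1r, the receptor for macrophage growth factor, was 9.42 and 8.81 in the melanomas and 7.69, 7.45 and 7.12 in the proliferations (difference 1.70, SE 0.29, adjusted p = 0.00166). All 3 separated the groups. The abundant myeloid genes Lyz2 (-0.26, SE 0.89, adjusted p = 0.827), Cd68 (0.22, SE 0.27, adjusted p = 0.527) and Tyrobp (0.23, SE 1.06, adjusted p = 0.876) did not pass, and Trem2 fell by 0.65 (SE 0.12, adjusted p = 0.00248), so the list did not move as one. Of 14 endothelial markers 6 rose and none fell (median 0.72, summed intensity 3663 to 3721 against 1468 to 1586), with Cdh5, the cadherin of endothelial junctions, 9.60 and 10.76 in the melanomas and 7.34, 7.63 and 7.42 in the proliferations (difference 2.72, SE 0.43, adjusted p = 0.00113). Among 17 fibroblast markers 8 rose and 2 fell (median 0.69, but 2 rose and 5 fell with a common interquartile range). The receptors Pdgfra and Pdgfrb rose by 1.97 (SE 0.34) and 1.86 (SE 0.21), while the proteoglycan Dcn fell by 0.96 (SE 0.27) and no longer passed without either melanoma (-1.0 and -0.92) or without proliferation 1 (-0.92). Summed fibroblast intensities overlapped, at 16260 to 25310 in the melanomas and 17770 to 19990 in the proliferations.

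Cell cycle genes, some of them downstream of the cyclin D kinase inhibitor encoded by Cdkn2a, were higher in the melanomas in part. Of 28 measured genes of mitosis 14 rose and none fell, with a median difference of 1.14. Of 27 genes of DNA replication and E2F targets 9 rose and none fell, with a median of 0.48. Of 17 genes of the RB pathway 7 rose and 1 fell, with a median of 0.64 (0.25 with the common interquartile range, against 0.16 for all genes). That list holds kinase inhibitors as well as activators. Direction held for the 3 medians under median centring, quantile normalization and a common interquartile range, but the counts depended on the scaling and on single arrays. Under quantile normalization 7 mitotic genes rose and 4 of the RB pathway rose with 2 falling, and with the common range 9 and 5 rose. Counts were higher in fits without the sorted cells. There 17 mitotic genes rose with the 7 uncultured tissue arrays and 25 with the 5 compared arrays. Leaving out arrays changed the counts too: without melanoma 2 there were 6 mitotic and 4 replication genes, without proliferation 2 there were 5 replication genes, and without melanoma 1 there were 4 of the RB pathway.

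Among the activators, cyclin D1, encoded by Ccnd1, which binds and activates the kinases that Cdkn2a inhibits, was 11.40 and 11.24 in the melanomas and 8.97, 9.02 and 9.13 in the proliferations, a rise of 2.28 (SE 0.17, adjusted p = 2.06e-05). Its kinase partner Cdk6 was 9.31 and 8.71 in the melanomas and 7.51, 7.83 and 7.78 in the proliferations (difference 1.30, SE 0.28, adjusted p = 0.00529), a call lost under quantile normalization (0.84) and without melanoma 1 (1.00). Cdk4 was 10.87 and 11.01 in the melanomas and 9.79, 10.13 and 10.02 in the proliferations (difference 0.96, SE 0.15, adjusted p = 0.000946), although with a common interquartile range it was -0.15. Every melanoma array was above every proliferation array for these genes as reported. Ccnd2 was 10.49 and 9.43 in the melanomas and 10.37, 10.50 and 10.49 in the proliferations, with overlap (difference -0.50, SE 0.24, adjusted p = 0.117, or -1.03 and passing without melanoma 1). Rb1, the target of the kinases, differed by 0.04 (SE 0.20, adjusted p = 0.903).

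The inhibitors did not move together. Cdkn2b, the neighbour of Cdkn2a that inhibits the same kinases, was 8.42 and 8.06 in the melanomas and 7.35, 7.22 and 7.04 in the proliferations (difference 1.03, SE 0.18, adjusted p = 0.00172). Cdkn1b, an inhibitor of cyclin E and cyclin A kinases, was 9.17 and 9.20 in the melanomas and 8.37, 7.68 and 8.40 in the proliferations (difference 1.03, SE 0.20, adjusted p = 0.00293), but a second probe set of the gene gave 0.14 and the call was lost under quantile normalization (0.52) and the common interquartile range (0.48). These 2 were higher on both melanomas than on any proliferation. Cdkn1c, a related inhibitor, was 7.19 and 7.25 in the melanomas and 8.0, 8.43 and 8.33 in the proliferations, a difference of -1.04 (SE 0.16, adjusted p = 0.0011). Cdkn2c was 8.34 and 7.83 in the melanomas and 7.59, 7.50 and 8.10 in the proliferations with overlap (difference 0.35, SE 0.21, adjusted p = 0.187).

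Of the E2F family and its targets, E2f8, an E2F made in S phase that represses the others, was 9.57 and 10.18 in the melanomas and 6.92, 6.76 and 7.03 in the proliferations, a rise of 2.98 (SE 0.41, adjusted p = 0.000517) or 7.87-fold. E2f1, an activating E2F, was 7.0 and 6.88 in the melanomas and 6.22, 6.08 and 6.09 in the proliferations (difference 0.81, SE 0.11, adjusted p = 0.000455). The cyclin E gene Ccne1 was 7.07 and 7.62 in the melanomas and 6.46, 6.46 and 6.38 in the proliferations (difference 0.92, SE 0.18, adjusted p = 0.00334), and Tyms, which makes thymidylate, was 8.55 and 9.02 in the melanomas and 7.78, 7.47 and 7.71 in the proliferations (difference 1.13, SE 0.18, adjusted p = 0.00117). None of the 4 overlapped between groups. E2f3 rose by 1.30 (SE 0.31) on the probe set used and was -0.02 on the other, with the call lost without melanoma 1 (1.29) and under quantile normalization (1.12), and the replication clamp Pcna was 11.73 and 11.79 in the melanomas and 11.26, 11.12 and 11.61 in the proliferations, which did not pass (0.43, SE 0.40, adjusted p = 0.407).

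Among the mitotic genes, Cdk1, the kinase of mitotic entry, was 9.55 and 9.67 in the melanomas and 7.51, 7.42 and 7.87 in the proliferations (difference 2.0, SE 0.37, adjusted p = 0.00268). Plk1, a mitotic kinase, was 7.73 and 8.20 in the melanomas and 6.50, 6.56 and 6.54 in the proliferations (difference 1.43, SE 0.28, adjusted p = 0.00312), and Cdc20, which activates the anaphase-promoting complex, was 8.02 and 8.55 in the melanomas and 6.74, 6.98 and 6.95 in the proliferations (difference 1.40, SE 0.21, adjusted p = 0.000872). The survivin gene Birc5 was 9.24 and 9.75 in the melanomas and 7.73, 8.10 and 8.23 in the proliferations (difference 1.47, SE 0.28, adjusted p = 0.00283). All melanoma arrays lay above all proliferation arrays for these genes. The proliferation antigen Mki67 went against this, at 8.39 and 8.63 in the melanomas and 8.59, 8.61 and 8.94 in the proliferations (difference -0.20, SE 0.37, adjusted p = 0.681), and for the topoisomerase Top2a the probe set used gave 0.67 (SE 0.41, adjusted p = 0.209) and a second gave -0.66. The Top2a probe set used passed in the limma fit on the 5 compared arrays alone (adjusted p = 0.0401). Epidermal and hair markers were higher in the proliferations, and what dividing cells of those tissues add to these levels was not tested.

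**Figure D3:**
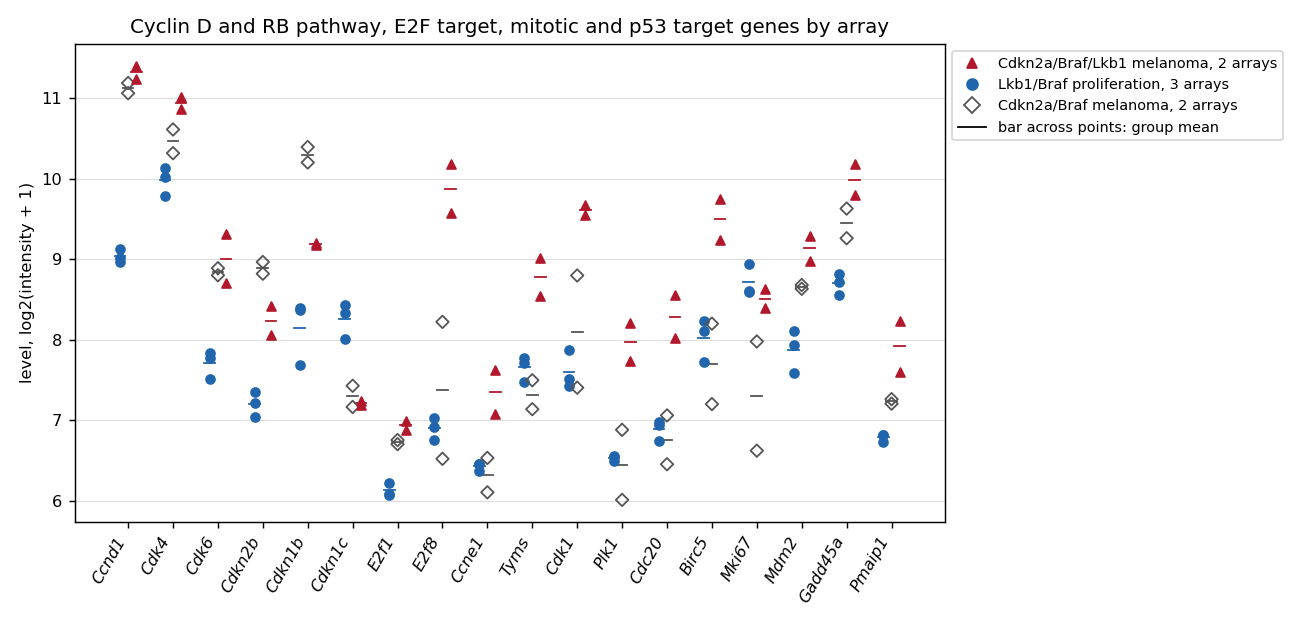
Level in log2(intensity + 1) on each tissue array (vertical axis) for 18 genes of the RB pathway, E2F targets, mitosis and p53 targets (horizontal axis), with triangles for Cdkn2a/Braf/Lkb1 melanoma, circles for Lkb1/Braf proliferation, open diamonds for Cdkn2a/Braf melanoma and bars for group means. Triangles lie above circles for every gene except Cdkn1c, where they lie below, and Mki67, where the groups overlap, although Cdk4 turned to -0.15 with a common interquartile range.

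Many promoters of the mitotic genes hold a sequence that the choice of members did not use, the cell cycle homology region (CHR). It is an element of genes that RB-family complexes silence in non-dividing cells. The letters TTTGAA were searched on both strands from 250 bases before to 50 bases after the start of each gene in RefSeq sequence of GRCm38.p6, after the results were known. They were present in 16 of 23 mitotic genes with a promoter in the table, in 8 of the 11 that rose, and in 17.3% of the 15613 tested genes with a promoter (17.9% of all 32851 promoters). The letters were about as common among the mitotic genes that rose as in the whole mitotic list. The windows of Cdk1 (chr10:69352956-69353005 and, nearer the start, chr10:69352913-69352949) and Cdc20 (chr4:118437344-118437383), all on the minus strand, are shown 5′ to 3′ in the direction of the gene because their transcripts were among the clearest mitotic increases. Capitals mark the matched letters.
Cdk1, distal: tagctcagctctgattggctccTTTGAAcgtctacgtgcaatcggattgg
Cdk1, proximal: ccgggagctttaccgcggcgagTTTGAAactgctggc
Cdc20: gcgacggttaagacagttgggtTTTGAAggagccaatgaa
A match describes the letters and does not show that the site is used.

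Targets of p53, which Arf protects from Mdm2, were higher more often than lower. Of 19 measured genes 8 rose and 1 fell, with a median of 0.47 (5 rose under quantile normalization, median 0.18, and 5 with the common range, median 0.23 against 0.16 for all genes), and p53 itself, Cdkn1a and Bax were not analysed here. Mdm2, the ligase that degrades p53 and is itself a p53 target, was 8.98 and 9.29 in the melanomas and 8.11, 7.94 and 7.58 in the proliferations (difference 1.25, SE 0.25, adjusted p = 0.00382), a call lost under quantile normalization (0.75) and a common interquartile range (0.75). Gadd45a, a stress gene, was 10.19 and 9.79 in the melanomas and 8.72, 8.56 and 8.82 in the proliferations (difference 1.29, SE 0.19, adjusted p = 0.000801, lost at 0.52 with the common range). Pmaip1, the cell death gene that makes Noxa, was 8.24 and 7.60 in the melanomas and 6.82, 6.73 and 6.82 in the proliferations (difference 1.13, SE 0.23, adjusted p = 0.004). The receptors Eda2r and Tnfrsf10b rose by 1.13 (SE 0.20) and 1.14 (SE 0.24), the latter by 0.70 without melanoma 2. None of these groups overlapped. Perp fell, at 6.71 and 7.93 in the melanomas and 11.16, 10.98 and 11.22 in the proliferations (difference -3.80, SE 0.66, adjusted p = 0.00188), and it is also a desmosome gene on the keratinocyte list. Without melanoma 1 only 5 of the list rose.

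Genes of DNA repair showed small shifts, 7 of 18 rising, none falling, with a median of 0.57 (13 rising with median centring) and no difference above 1.03. Brca1, of homologous recombination, was 6.38 and 7.08 in the melanomas and 6.07, 5.81 and 6.08 in the proliferations (difference 0.74, SE 0.26, adjusted p = 0.0442), a call lost without any 1 of the proliferations (0.66 to 0.79). The count was 0 without melanoma 2, where Brca1 differed by 0.40, 1 without proliferation 1, 3 without proliferation 2 or 3 and 4 without melanoma 1.

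Matrix proteases and their partners were among the most raised genes of the melanomas. Of 26 measured genes 15 rose and 3 fell, with a median of 0.96, and the rise kept its sign under every scaling (medians of 0.72 to 1.08). The stromelysin Mmp3 was 11.47 and 11.26 in the melanomas and 8.96, 8.21 and 7.87 in the proliferations (difference 3.02, SE 0.52, adjusted p = 0.00174). The stromelysin Mmp10 was 8.78 and 9.92 in the melanomas and 5.81, 6.05 and 5.64 in the proliferations (difference 3.52, SE 0.46, adjusted p = 0.000426). The collagenase Mmp13 was 10 and 7.78 in the melanomas and 5.67, 5.40 and 5.02 in the proliferations (difference 3.52, SE 0.50, adjusted p = 0.000618). Proliferation 1 had the highest Mmp3 of its group, yet both melanomas lay above it. In the plasminogen system Plau, the urokinase protease, was 9.29 and 9.92 in the melanomas and 6.83, 6.75 and 6.75 in the proliferations (difference 2.83, SE 0.47, adjusted p = 0.00143). Plaur, its receptor, was 8.35 and 8.68 in the melanomas and 6.32, 6.45 and 6.36 in the proliferations (difference 2.14, SE 0.14, adjusted p = 1.03e-05). Plat, the tissue activator, was 9.41 and 9.76 in the melanomas and 7.12, 6.97 and 6.78 in the proliferations (difference 2.63, SE 0.30, adjusted p = 0.000185). Replicates of Plaur lay within 0.33 log2 units in the melanomas, against a difference of more than 2. Timp1, which inhibits metalloproteinases, was 11.29 and 11.42 in the melanomas and 8.05, 7.21 and 6.38 in the proliferations (difference 4.14, SE 0.42, adjusted p = 9.79e-05, 17.6-fold), the largest rise of the list. Mmp2 and Mmp14, a collagen-degrading pair of which the second activates the proenzyme of the first at the cell surface, rose by 1.56 (SE 0.36) and 1.06 (SE 0.29), calls lost under quantile normalization (1.02 and 0.47), under the common interquartile range (0.56 and 0.27) and without melanoma 1 (1.30 and 0.82). The members that fell were Serpinb2 at -1.99 (SE 0.41), which was -1.19 without melanoma 1, Timp4 at -0.85 (SE 0.20), lost without melanoma 2 (-0.51) and under quantile normalization (-0.61), and Mmp7 at -0.60 (SE 0.14).

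Several of these proteases are neighbours in a single cluster of metalloproteinase genes, and the increases lay in a stretch of it. In the order of the genes on the chromosome, Mmp13 differed by 3.52, Mmp12 by 0.90, Mmp1b by 3.62, Mmp3 by 3.02, Mmp1a by 5.46, Mmp10 by 3.52 and Mmp8 by 0.90. Beyond Mmp8, Mmp27 fell at -1.44 (SE 0.15, adjusted p = 0.000139), Mmp20 differed by -0.31 (SE 0.13, adjusted p = 0.0745) and Mmp7 fell at -0.60 (SE 0.14, adjusted p = 0.00926), which no longer passed without melanoma 1 (-0.48), under quantile normalization (-0.28) or with the common range (-0.14). Within that stretch Mmp12, a macrophage elastase, was 9.14 and 10.57 in the melanomas and 8.83, 8.87 and 9.18 in the proliferations with overlap (difference 0.90, SE 0.61, adjusted p = 0.259). Mmp1b, a close copy of Mmp1a, was 5.32 and 8.90 in the melanomas and 3.46, 3.49 and 3.50 in the proliferations (difference 3.62, SE 0.74, adjusted p = 0.00411) and 1.84 without melanoma 2, so its size rests on that array. Signals of the probes of Mmp1a and Mmp1b may not be fully separable because the copies are alike. Mmp8 rose by 0.90 (SE 0.28) but did not pass without melanoma 2 (0.35), proliferation 2 (0.94) or proliferation 3 (0.74).

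**Figure D4:**
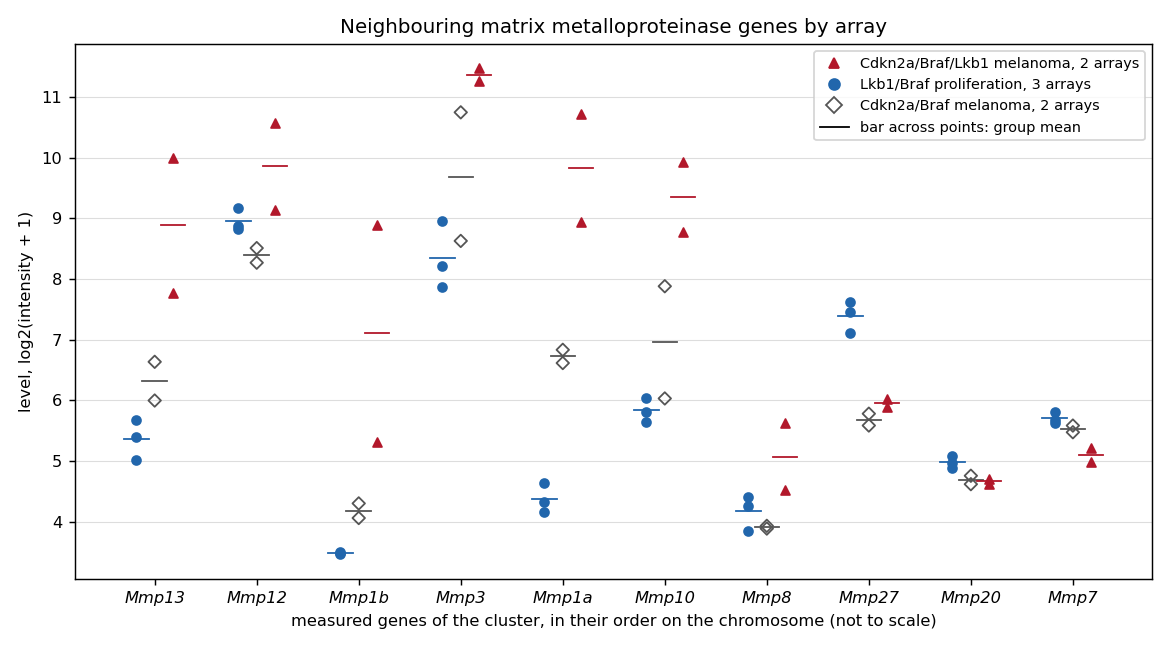
Level in log2(intensity + 1) on each tissue array (vertical axis) for the 10 measured genes of the metalloproteinase cluster in chromosome order, not to scale (horizontal axis), with triangles for Cdkn2a/Braf/Lkb1 melanoma, circles for Lkb1/Braf proliferation, open diamonds for Cdkn2a/Braf melanoma and bars for group means. Triangles are well above circles for Mmp13, Mmp1b, Mmp3, Mmp1a and Mmp10 and below them for Mmp27, Mmp20 and Mmp7.

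Promoters of this group were searched for the AP-1 element, TGACTCA, bound by Fos and Jun proteins at the end of the MAPK cascade, on both strands in the same windows and again after the results were known. It was present in 6 of 18 protease list genes with a promoter, of which 4 were among the 10 that rose and 1 among the 3 that fell, and in 5.41% of the tested genes with a promoter (5.20% of all promoters). The raised genes with a match were Mmp3, Mmp10, Mmp13 and Plaur, and Mmp1a and Mmp1b, which are not on the list, carried it too. Their windows show how near the start the element lies and how alike the copies Mmp1a and Mmp1b are: Mmp1a at chr9:7464046-7464096, Mmp3 at chr9:7445754-7445804, Mmp10 at chr9:7502257-7502307, Mmp13 at chr9:7272457-7272507 and Plaur at chr7:24462392-24462442 on the plus strand and Mmp1b at chr9:7388091-7388141 on the minus strand, GRCm38.p6, each 5′ to 3′ in the direction of its gene with the element in capitals, in either orientation.
Mmp1a: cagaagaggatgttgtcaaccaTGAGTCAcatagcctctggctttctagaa
Mmp1b: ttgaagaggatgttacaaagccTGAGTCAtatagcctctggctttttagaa
Mmp3: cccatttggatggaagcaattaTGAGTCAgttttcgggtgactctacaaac
Mmp10: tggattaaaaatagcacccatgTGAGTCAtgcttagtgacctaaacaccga
Mmp13: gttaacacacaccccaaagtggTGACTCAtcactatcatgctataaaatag
Plaur: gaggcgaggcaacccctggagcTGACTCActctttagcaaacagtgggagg
Of the AP-1 subunits, Fosl1, which is induced by sustained MAPK signalling, was 7.47 and 8.48 in the melanomas and 5.79, 6.25 and 6.11 in the proliferations (difference 1.92, SE 0.25, adjusted p = 0.000413). Jun was 9.38 and 9.40 in the melanomas and 8.38, 8.47 and 8.19 in the proliferations (difference 1.04, SE 0.16, adjusted p = 0.000849) and lost its call under quantile normalization (0.47) and the common interquartile range (0.42). Of 23 immediate early genes 3 rose, Jun with Maff (1.27, SE 0.22) and Ier3 (1.57, SE 0.29), 2 fell, Egr3 (-0.98, SE 0.12) and Jund (-0.74, SE 0.14), and the list's median was 0.02, with 2 rising and 4 falling under quantile normalization and 2 and 5 with the common range.

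Secreted factors linked to the senescent state share members with the protease list. Of 21 measured genes of the senescence secretome 12 rose and 2 fell, with a median of 1.58. The neutrophil attractant Cxcl5 was 7.55 and 9.01 in the melanomas and 5.16, 4.91 and 4.52 in the proliferations (difference 3.42, SE 0.45, adjusted p = 0.000419). The monocyte attractant Ccl2 was 8.75 and 9.45 in the melanomas and 7.65, 7.43 and 7.14 in the proliferations (difference 1.70, SE 0.44, adjusted p = 0.013, lost at 1.35 without melanoma 2 and at 1.31 under quantile normalization). Il1b, an inflammatory cytokine, was 8.27 and 10.01 in the melanomas and 7.06, 6.94 and 6.50 in the proliferations (difference 2.31, SE 0.45, adjusted p = 0.0034, 1.44 without melanoma 2). Melanoma 2 was the higher of the pair for all 3. Il6 was 3.44 and 5.96 in the melanomas and 3.21, 3.17 and 2.99 in the proliferations, so its difference of 1.58 (SE 0.53, adjusted p = 0.0385) rests on melanoma 2 (0.31 without it, not passing). It did not pass without any 1 of the proliferations either (1.51 to 1.62). Igfbp3, which binds insulin-like growth factors, was 10.73 and 10.71 in the melanomas and 8.80, 8.61 and 8.57 in the proliferations (difference 2.06, SE 0.42, adjusted p = 0.00433), whereas Igfbp5 was 8.33 and 5.79 in the melanomas and 8.87, 9.06 and 8.77 in the proliferations (difference -1.84, SE 0.64, adjusted p = 0.0424), which was -3.11 without melanoma 1 and -0.57, not passing, without melanoma 2, and which also missed the threshold without any 1 of the proliferations (-1.76 to -1.91).

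The pigment program of melanocytes was lower in the melanomas. Of 22 lineage genes 14 fell and 2 rose, with a median of -1.06 that lay between -1.09 and -0.95 under the 3 scalings. Among the melanin enzymes, Dct, the dopachrome tautomerase, was 5.19 and 4.78 in the melanomas and 10.19, 9.98 and 10.19 in the proliferations, a difference of -5.14 (SE 0.25, adjusted p = 2.27e-06). Tyrp1 was 4.63 and 4.77 in the melanomas and 8.30, 8.39 and 8.48 in the proliferations (difference -3.70, SE 0.18, adjusted p = 2.44e-06). Tyr, the rate-limiting enzyme, was 4.33 and 3.99 in the melanomas and 6.58, 6.18 and 6.67 in the proliferations (difference -2.32, SE 0.54, adjusted p = 0.00753). No melanoma array came near a proliferation array for any of them. Melanosome proteins followed: Mlana was 6.98 and 6.74 in the melanomas and 10.41, 10.09 and 10.24 in the proliferations (difference -3.39, SE 0.18, adjusted p = 3.14e-06). Pmel, the fibril protein, was 6.08 and 6.22 in the melanomas and 8.01, 8.11 and 8.37 in the proliferations (difference -2.01, SE 0.20, adjusted p = 9.99e-05). The transporter Slc45a2 was 5.03 and 5.23 in the melanomas and 6.63, 6.75 and 6.43 in the proliferations (difference -1.48, SE 0.15, adjusted p = 0.000106). Each of these was lower on both melanomas than on any proliferation. Mc1r, the receptor for the pigment hormone, was 5.75 and 5.93 in the melanomas and 7.14, 7.0 and 6.98 in the proliferations (difference -1.20, SE 0.20, adjusted p = 0.00149).

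The transcription factors of the lineage moved less and not all one way. Mitf, the master regulator, was 6.59 and 6.07 in the melanomas and 7.38, 7.44 and 7.37 in the proliferations (difference -1.06, SE 0.15, adjusted p = 0.000717), but a second probe set gave 0.04 and the mean of both did not pass (-0.51). Sox10 was 5.97 and 6.44 in the melanomas and 7.43, 7.34 and 7.04 in the proliferations (difference -1.06, SE 0.33, adjusted p = 0.0267), a call lost without melanoma 1 (-0.83), proliferation 1 (-0.98) or proliferation 2 (-1.03). Pax3, a neural crest factor upstream of Mitf, rose, at 8.73 and 8.35 in the melanomas and 7.04, 7.41 and 7.06 in the proliferations (difference 1.37, SE 0.27, adjusted p = 0.00328). Of these factors Mitf and Sox10 were lower and Pax3 higher on both melanomas than on any proliferation. Of the receptors, Ednrb, for endothelin, was 7.78 and 8.06 in the melanomas and 7.43, 7.36 and 7.22 in the proliferations (difference 0.58, SE 0.13, adjusted p = 0.00676), a call lost without melanoma 2 (0.44) and under quantile normalization (0.21) and the common range (0.35), and Kit was 7.16 and 6.70 in the melanomas and 7.19, 7.25 and 7.24 in the proliferations (difference -0.30, SE 0.43, adjusted p = 0.59). Sorted melanocytes at day 19 had averages far above both lesions for the pigment genes, for example 13.29 for Dct and 11.79 for Tyr in Cdkn2a/Braf cells.

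**Figure D5:**
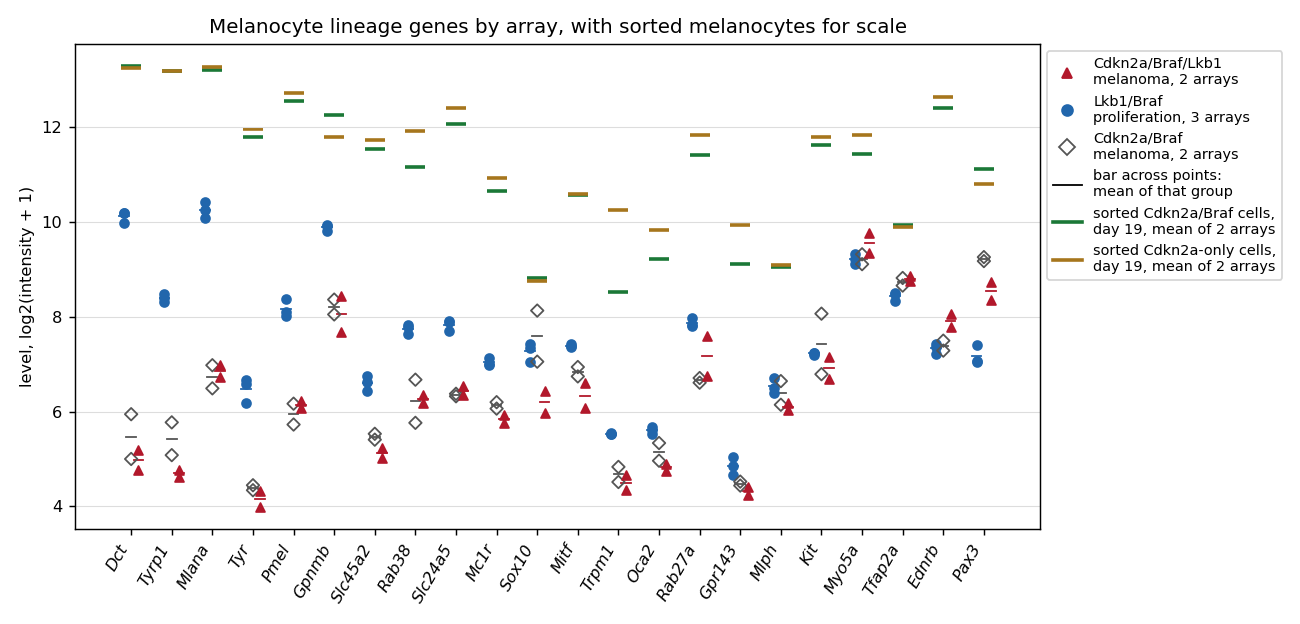
Level in log2(intensity + 1) (vertical axis) of the 22 measured melanocyte lineage genes in order of their difference (horizontal axis), with triangles for Cdkn2a/Braf/Lkb1 melanoma, circles for Lkb1/Braf proliferation, open diamonds for Cdkn2a/Braf melanoma and short bars for the mean of each of these. Wide bars give the means of sorted Cdkn2a/Braf cells and of sorted Cdkn2a-only cells at day 19, each over 2 arrays. The triangles lie below the circles from Dct to Kit and above them from Myo5a to Pax3, and Dct, Tyrp1 and Mlana show the widest gaps.

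The promoters of pigment genes were searched for the core of the M-box, CATGTG, the element bound by Mitf, on both strands in the same windows. It was present in 7 of 15 lineage genes with a promoter, in 6 of the 9 that fell and not in Ednrb, the 1 that rose, against 12.6% of the tested genes with a promoter and 14.2% of all promoters. The windows of Tyr (chr7:87493513-87493555, minus strand), Tyrp1 (chr4:80834145-80834194, plus strand), Dct (chr14:118052451-118052496 and chr14:118052369-118052418, minus strand) and Trpm1 (chr7:64153672-64153721, plus strand) in GRCm38.p6 are shown because 3 of these genes had among the largest falls and Trpm1 a small one. Capitals mark the core in either orientation.
Tyr: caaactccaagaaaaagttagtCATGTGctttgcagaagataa
Tyrp1: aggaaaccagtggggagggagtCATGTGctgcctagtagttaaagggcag
Dct, distal: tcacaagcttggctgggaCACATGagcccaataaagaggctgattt
Dct, proximal: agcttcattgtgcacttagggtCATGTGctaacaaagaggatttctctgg
Trpm1: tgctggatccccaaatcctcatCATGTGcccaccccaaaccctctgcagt
Trpm1, a channel of melanocytes, was 4.34 and 4.67 in the melanomas and 5.53, 5.53 and 5.55 in the proliferations, a difference of -1.03 (SE 0.31, adjusted p = 0.0254) whose call was lost when any 1 of the 5 arrays was left out (-0.87 without melanoma 1, -1.19 without melanoma 2 and -1.02 to -1.04 without a proliferation) and under quantile normalization (-0.73) and the common range (-0.46).

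Of 20 genes of a neural crest state 9 rose and 2 fell, with a median of 0.38 as reported, and 7 rose and 3 fell under quantile normalization, with a median of -0.01. The count was 6 rising without melanoma 1. Of 14 markers of Schwann cells and nerve 1 rose and 3 fell, with a median of -0.54. Sox2, a stem cell transcription factor, was 8.55 and 9.17 in the melanomas and 5.81, 5.95 and 5.57 in the proliferations (difference 3.08, SE 0.27, adjusted p = 5.05e-05). Tnc was 11.75 and 11.65 in the melanomas and 7.85, 7.38 and 7.14 in the proliferations (19-fold, adjusted p = 3.72e-06). Twist1, a mesenchymal transcription factor, was 9.36 and 9.13 in the melanomas and 7.34, 7.17 and 7.38 in the proliferations (difference 1.95, SE 0.20, adjusted p = 0.000116). These 3 had no overlap and small replicate gaps. The receptor kinase Axl was 9.29 and 9.35 in the melanomas and 8.17, 8.09 and 7.83 in the proliferations (difference 1.29, SE 0.16, adjusted p = 0.000348). Nes, an intermediate filament of progenitors, was 7.95 and 7.68 in the melanomas and 6.31, 5.73 and 5.82 in the proliferations (difference 1.86, SE 0.34, adjusted p = 0.00238). Wnt5a was 9.17 and 8.30 in the melanomas and 6.61, 6.76 and 6.91 in the proliferations (difference 1.97, SE 0.43, adjusted p = 0.00604), lost without melanoma 1 (1.53). Axl, Nes and Wnt5a were higher on both melanomas than on any proliferation. Ngfr, a marker of neural crest cells, fell, at 7.28 and 7.30 in the melanomas and 7.82, 7.86 and 8.03 in the proliferations (difference -0.61, SE 0.12, adjusted p = 0.0032), as did Sox9, at 7.51 and 8.21 in the melanomas and 8.92, 8.84 and 9.02 in the proliferations (difference -1.06, SE 0.21, adjusted p = 0.00328). The neuronal genes Nefm, Nefl, Gap43 and Tac1 rose with the adhesion molecule Ncam1 at 1.51 (SE 0.27), while Erbb3, a neuregulin receptor of Schwann cells and melanocytes, was 5.47 and 5.15 in the melanomas and 7.87, 8.06 and 7.91 in the proliferations (difference -2.63, SE 0.39, adjusted p = 0.000745). S100b, a Schwann cell marker, was 5.84 and 5.87 in the melanomas and 7.09, 7.04 and 6.96 in the proliferations (difference -1.18, SE 0.56, adjusted p = 0.114). It passed in the limma fit on the 5 compared arrays alone (adjusted p = 0.000388). Of 14 Schwann cell and nerve markers 1 rose and 3 fell.

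Adhesion genes moved in both directions, and the balance depended on the scaling. Of 25 such genes 10 rose and 6 fell as reported (median 0.60), 8 rose and 8 fell under quantile normalization (median 0.05), and 6 rose and 9 fell with the common interquartile range (median -0.23). Cdh1, or E-cadherin, was 6.82 and 8.40 in the melanomas and 9.88, 9.89 and 9.77 in the proliferations (difference -2.24, SE 0.46, adjusted p = 0.00434, and -1.45 without melanoma 1). Cdh3 was 6.05 and 5.74 in the melanomas and 7.48, 7.61 and 7.92 in the proliferations (difference -1.77, SE 0.16, adjusted p = 5.36e-05). The claudin Cldn1 was 5.23 and 6.57 in the melanomas and 9.92, 9.73 and 10.09 in the proliferations (difference -4.01, SE 0.67, adjusted p = 0.00154). Melanoma 2 had the higher Cdh1 and Cldn1 of the pair and also the higher Krt5, at 5.31 and 6.78. Cdh2, or N-cadherin, was 7.99 and 8.88 in the melanomas and 5.71, 5.55 and 5.99 in the proliferations (difference 2.69, SE 0.33, adjusted p = 0.000279). Cdh11 was 11.83 and 11.05 in the melanomas and 9.43, 8.84 and 8.88 in the proliferations (difference 2.39, SE 0.30, adjusted p = 0.000338). Fibronectin, encoded by Fn1, was 12.18 and 11.39 in the melanomas and 10.11, 9.91 and 9.62 in the proliferations (difference 1.90, SE 0.45, adjusted p = 0.00882, lost at 1.5 without melanoma 1 and at 0.66 with the common range). The integrins Itga5 and Itgb1, which form a fibronectin receptor, rose by 1.49 (SE 0.15) and 1.5 (SE 0.13), the second call lost with the common range (0.35). Keratinocytes and stromal cells also express adhesion genes. Keratinocyte markers fell, while fibroblast markers rose in part with overlapping summed intensities, as given above. What these cells contribute to the adhesion genes was not tested.

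Genes that the MAPK cascade induces were higher in part, in lesions that all carry the altered Braf. Of 23 genes 12 rose and 2 fell, with a median of 0.74, and 11 to 14 rose under the 3 scalings. Feedback inhibitors were among them: Dusp4, a phosphatase of ERK, was 7.56 and 7.36 in the melanomas and 5.15, 5.59 and 5.15 in the proliferations (difference 2.17, SE 0.37, adjusted p = 0.00166). Dusp6, another, was 8.79 and 8.74 in the melanomas and 7.31, 7.43 and 7.21 in the proliferations (difference 1.45, SE 0.27, adjusted p = 0.00289). Spry4, an inhibitor of receptor signalling, was 8.03 and 8.47 in the melanomas and 6.54, 6.83 and 6.07 in the proliferations (difference 1.77, SE 0.26, adjusted p = 0.000712). Each separated the groups. The ETS factor Etv1 was 10.30 and 9.79 in the melanomas and 7.32, 6.74 and 6.50 in the proliferations (difference 3.19, SE 0.82, adjusted p = 0.0125), lost without melanoma 1 (2.93) and under the common range (2.69), and Etv5 was 9.19 and 9.04 in the melanomas and 7.81, 8.01 and 7.87 in the proliferations, which did not pass (1.22, SE 0.78, adjusted p = 0.229). In limma fits without the sorted cells Etv5 passed, with the 7 tissue arrays (adjusted p = 0.00139) and with the 5 compared arrays (adjusted p = 0.000486). Phlda1 rose by 1.30 (SE 0.17, adjusted p = 0.000411), lost with the common range (0.54), and the ephrin receptor Epha4 fell by 1.29 (SE 0.21, adjusted p = 0.0012). Myc rose by 0.74 (SE 0.23, adjusted p = 0.026), a call lost under quantile normalization (0.15) and the common range (0.16) and without melanoma 1 (0.91), melanoma 2 (0.57), proliferation 2 (0.71) or proliferation 3 (0.72). Of 13 genes of the Braf and Ras pathway 7 rose and none fell, with a median of 0.65, but the count was 4 without melanoma 1 and 2, with 1 falling, under quantile normalization and under the common range. Map2k1, the kinase that Braf phosphorylates, was 8.96 and 8.54 in the melanomas and 7.57, 7.47 and 7.72 in the proliferations (difference 1.16, SE 0.31, adjusted p = 0.0144), and Nf1, which switches Ras off, was 9.29 and 9.15 in the melanomas and 8.24, 8.02 and 8.21 in the proliferations (difference 1.06, SE 0.19, adjusted p = 0.00225). Both calls were lost under quantile normalization (0.72 and 0.52) and the common range (0.75 and 0.50), and that of Map2k1 also without melanoma 1 (0.95).

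Of 23 LKB1 and AMPK genes 4 were higher and 4 lower as reported, near the background shares, with a median of 0.03. Under quantile normalization 1 was higher and 7 lower (median -0.14), and with the common range 3 and 6 (median -0.09). Subunits of AMPK moved in both directions. Prkaa1, the widely expressed catalytic subunit, was 9.48 and 9.93 in the melanomas and 8.22, 7.98 and 8.48 in the proliferations (difference 1.48, SE 0.50, adjusted p = 0.0393). Prkaa2, the catalytic subunit prominent in muscle, was 4.61 and 4.99 in the melanomas and 5.20, 6.36 and 5.98 in the proliferations (difference -1.05, SE 0.28, adjusted p = 0.0142). Prkab1 and Prkag1, regulatory subunits, rose by 1.23 (SE 0.23) and 1.03 (SE 0.26). The call of Prkaa1 was lost when any 1 of the 5 arrays was left out (1.25 to 1.71), under quantile normalization (0.93) and with the common range (0.84). Prkaa2 was lost without melanoma 1 (-0.86) and under the same scalings (-0.74 and -0.56), and Prkag1 without melanoma 2 (0.91) and under those scalings (0.52 in both). Sik3, an AMPK-related kinase, was 8.50 and 8.50 in the melanomas and 7.75, 7.66 and 7.47 in the proliferations (difference 0.87, SE 0.15, adjusted p = 0.00172, lost at 0.41 under quantile normalization).

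Insulin and IGF receptors with their adaptor were higher in the melanomas. Of 23 genes of mTORC1, IGF and PI3K signalling 11 rose and 1 fell, with a median of 0.52, and 6 rose and 4 fell under quantile normalization, and 7 rose without melanoma 1 or without melanoma 2. Igf1r, the IGF receptor, was 8.73 and 8.34 in the melanomas and 6.86, 7.18 and 7.33 in the proliferations (difference 1.41, SE 0.27, adjusted p = 0.00287). Insr, the insulin receptor, was 10.70 and 10.46 in the melanomas and 9.26, 9.14 and 9.30 in the proliferations (difference 1.34, SE 0.24, adjusted p = 0.00201). Irs1, their adaptor, was 9.94 and 9.24 in the melanomas and 7.81, 8.0 and 8.36 in the proliferations (difference 1.53, SE 0.26, adjusted p = 0.0017). Second probe sets of Insr and Irs1 gave 0.96 and 1.17, and the call of Insr was lost with the common range (0.40). Rheb, the GTPase that activates mTORC1, was 10.76 and 10.50 in the melanomas and 9.36, 9.24 and 9.75 in the proliferations (difference 1.18, SE 0.18, adjusted p = 0.00105). Eif4ebp1, a translation inhibitor that mTORC1 inactivates, was 8.27 and 8.45 in the melanomas and 7.49, 7.13 and 7.31 in the proliferations (difference 1.04, SE 0.22, adjusted p = 0.00475). The call of Rheb was lost with the common range (0.20) and that of Eif4ebp1 under quantile normalization (0.68). These arrays measure transcripts and say nothing of mTORC1 activity. Among 11 genes of the let-7 and oncofetal list 4 rose and none fell (median -0.05, but 0.06 with median centring, 0.20 under quantile normalization and 0.52 with the common range), led by Hmga2, a chromatin protein of embryonic cells, at 9.65 and 10.09 in the melanomas and 6.99, 6.66 and 6.08 in the proliferations (difference 3.29, SE 0.26, adjusted p = 3.49e-05, 9.79-fold). Plag1, a growth factor regulator, was 8.37 and 7.01 in the melanomas and 5.72, 5.87 and 5.79 in the proliferations (difference 1.89, SE 0.43, adjusted p = 0.00685) and 1.21 without melanoma 1, where its call was lost.

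Metabolic groups divided. Of 17 sterol and fatty acid genes 8 fell (4 without melanoma 1) and 1 rose, with a median of -0.42. The desaturase Scd1 was 9.71 and 8.48 in the melanomas and 11.79, 12.04 and 12.08 in the proliferations (difference -2.88, SE 0.65, adjusted p = 0.00685, lost at -2.26 without melanoma 2). The elongase Elovl6 was 7.74 and 8.31 in the melanomas and 10.20, 10.33 and 10.43 in the proliferations (difference -2.29, SE 0.34, adjusted p = 0.000795). The sterol enzyme Hmgcs1 was 8.32 and 8.37 in the melanomas and 9.56, 9.61 and 9.70 in the proliferations (difference -1.28, SE 0.21, adjusted p = 0.00139). All of these were lower on both melanomas than on any proliferation. Scd2, another desaturase, rose, at 9.09 and 8.94 in the melanomas and 7.73, 7.93 and 7.81 in the proliferations (difference 1.19, SE 0.19, adjusted p = 0.00122). Sebaceous and fat markers also fell, as given above, and their part was not tested. Scd1 is itself on the sebaceous list. Of 21 ATF4 and amino acid genes 5 rose and 3 fell (median -0.01), shares close to those of all genes, and 3 rose and 6 fell under quantile normalization (median -0.24). Among them were the cystine transporter Slc7a11 at 9.40 and 8.04 in the melanomas and 5.25, 5.98 and 6.29 in the proliferations (difference 2.88, SE 0.47, adjusted p = 0.00137), the mitochondrial folate enzyme Mthfd2 at 7.52 and 8.05 in the melanomas and 6.20, 6.52 and 6.37 in the proliferations (difference 1.42, SE 0.26, adjusted p = 0.00224) and Phgdh, the first enzyme of serine synthesis, at 6.52 and 6.56 in the melanomas and 7.42, 7.28 and 7.55 in the proliferations (difference -0.88, SE 0.22, adjusted p = 0.0121, lost at -0.86 without melanoma 1).

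Respiratory chain genes gave a direction that the scaling set. Of 26 such genes 15 rose (5 without melanoma 1 and 9 without melanoma 2 or proliferation 1) and none fell as reported (median 0.45), none changed under quantile normalization (median 0.01), and none rose while 11 fell with a common interquartile range (median -0.43), so no direction is given for them. The lysosome list (9 of 20 rose and 1 fell, median 0.48) and the glycolysis list (5 of 21 rose and 3 fell, median 0.02) turned in the same way, to 2 rising and 5 falling and to 2 rising and 10 falling with the common range, and without melanoma 1 the lysosome list had 2 rising. Of individual members, Tfec, a relative of Mitf and Tfeb expressed in macrophages, was 8.14 and 8.39 in the melanomas and 5.88, 5.76 and 6.12 in the proliferations (difference 2.35, SE 0.15, adjusted p = 1.03e-05). Atp6v0d2, a proton pump subunit, was 6.24 and 6.78 in the melanomas and 9.14, 9.14 and 9.64 in the proliferations (difference -2.80, SE 0.27, adjusted p = 8.48e-05). Hif1a, the hypoxia factor, was 10.07 and 10.40 in the melanomas and 9.06, 8.78 and 9.09 in the proliferations (difference 1.26, SE 0.18, adjusted p = 0.000632), lost with the common range (0.42), and P4ha1, a collagen hydroxylase that it induces, was 9.41 and 9.28 in the melanomas and 7.88, 7.68 and 7.83 in the proliferations (difference 1.54, SE 0.17, adjusted p = 0.000181).

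Extracellular matrix and morphogen genes rose in part. Of 26 collagen and matrix genes 13 rose and 2 fell (median 0.46), with 8 rising without melanoma 1 and 6 under quantile normalization (median 0.04). With the common range 7 rose and 4 fell. Col12a1, a fibril-associated collagen, was 11.08 and 11.61 in the melanomas and 8.10, 7.83 and 7.77 in the proliferations (difference 3.44, SE 0.36, adjusted p = 0.000116). Thbs2, a matricellular protein, was 9.94 and 9.68 in the melanomas and 7.68, 7.53 and 7.42 in the proliferations (difference 2.26, SE 0.29, adjusted p = 0.000374). The members that fell, Col17a1 at -1.99 (SE 0.25) and Col7a1 at -0.40 (SE 0.12), the latter lost without melanoma 1 (-0.28), proliferation 1 (-0.35) or proliferation 2 (-0.38), anchor the epidermis to its basement membrane. Of 24 TGF-beta and BMP genes 12 rose and 1 fell (median 0.59), with 6 rising without melanoma 1, under quantile normalization and with the common range. Bmp2, a bone morphogenetic ligand, was 10.44 and 9.50 in the melanomas and 6.20, 6.65 and 6.66 in the proliferations (difference 3.47, SE 0.63, adjusted p = 0.00228). Its target Id3 was 9.77 and 8.94 in the melanomas and 7.58, 7.33 and 7.62 in the proliferations (difference 1.85, SE 0.23, adjusted p = 0.000338). Inhba, the activin subunit, was 8.75 and 9.04 in the melanomas and 7.25, 7.37 and 7.20 in the proliferations (difference 1.63, SE 0.25, adjusted p = 0.000907). All 3 were clear of the proliferations.

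Of 28 WNT genes 6 rose, the share of all genes, and 9 fell, with a median of -0.11, and 8 rose and 6 fell with median centring. Without melanoma 1 there were 4 of each, and without melanoma 2 there were 9 and 7. Some secreted antagonists rose: Sfrp2 was 9.63 and 9.89 in the melanomas and 6.47, 6.27 and 6.31 in the proliferations (difference 3.41, SE 0.31, adjusted p = 6.11e-05). Dkk2 was 10.62 and 9.63 in the melanomas and 7.23, 7.25 and 7.31 in the proliferations (difference 2.86, SE 0.44, adjusted p = 0.00103), and Notum, which removes the lipid of WNT ligands, was 8.99 and 7.91 in the melanomas and 6.28, 6.07 and 6.11 in the proliferations (difference 2.29, SE 0.28, adjusted p = 0.000262). Dkk1, another antagonist, fell by 0.53 (SE 0.16), but its difference did not pass without melanoma 1 (-0.29), proliferation 1 (-0.52) or proliferation 3 (-0.52). The ligands Wnt4 and Wnt10b fell by 0.99 (SE 0.16) and 0.80 (SE 0.15), and so did Rnf43, a ligase that clears WNT receptors, by 1.31 (SE 0.15). Hair follicles and epidermis express WNT ligands, and their markers fell with these, a part that was not tested. Of 21 angiogenesis genes 11 rose and none fell (median 0.59), 6 of them without melanoma 1, with the apelin receptor Aplnr 10.29 and 9.19 in the melanomas and 7.49, 7.54 and 7.71 in the proliferations (difference 2.16, SE 0.33, adjusted p = 0.00101) and the semaphorin and VEGF co-receptor Nrp2 10.18 and 9.76 in the melanomas and 8.03, 8.09 and 8.18 in the proliferations (difference 1.87, SE 0.21, adjusted p = 0.000188).

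Of 32 chemokines 9 rose and 5 fell (median 0.48), shares not far from those of all genes, so single members are described. The monocyte attractant Ccl12 was 10.06 and 9.22 in the melanomas and 6.48, 5.76 and 5.71 in the proliferations (difference 3.66, SE 0.33, adjusted p = 5.63e-05). Ccl5, an attractant of T cells and monocytes, was 8.89 and 9.14 in the melanomas and 7.60, 7.41 and 7.29 in the proliferations (difference 1.58, SE 0.18, adjusted p = 0.00019). Ccl19, which guides lymphocytes and dendritic cells, fell, at 8.46 and 8.59 in the melanomas and 10.58, 10.26 and 10.38 in the proliferations (difference -1.88, SE 0.20, adjusted p = 0.000145), and 3 further probe sets of the gene gave -2.50, -3.09 and -4.12. Ccl12 and Ccl5 were higher and Ccl19 lower on both melanomas than on any proliferation. Lymphocyte genes were lower in part: the T cell receptor subunits Cd3e and Cd3g fell by 1.04 (SE 0.16) and 1.19 (SE 0.29), the second call lost without melanoma 2 (-1.04). They belong to a list of 16 in which 1 rose and 5 fell (2 without melanoma 1), with a median of -0.22 that was 0.06 under quantile normalization and 0.20 with the common range, and the immunoglobulin joining chain gene Jchain was 4.75 and 4.65 in the melanomas and 8.70, 8.19 and 7.91 in the proliferations (difference -3.56, SE 0.19, adjusted p = 3.68e-06), within a list of 11 in which 1 rose and 6 fell (2 under quantile normalization, and 3 without melanoma 1, melanoma 2 or proliferation 1). Of 13 neutrophil markers 4 rose, 1 fell and 8 did not pass (median 0.11), with 2 rising and 2 falling without melanoma 2 (median -0.18), 6 rising without melanoma 1, 2 without proliferation 2 or 3 and 8 with the common range. Their levels varied between the melanomas: S100a8 was 8.09 and 9.70 in the melanomas and 6.21, 5.04 and 5.83 in the proliferations (difference 3.20, SE 0.46, adjusted p = 0.000684). S100a9 was 8.90 and 11.02 in the melanomas and 8.10, 7.67 and 7.39 in the proliferations (difference 2.24, SE 0.49, adjusted p = 0.00583, 1.18 without melanoma 2). Cxcr2, the receptor for Cxcl5, was 5.60 and 9.07 in the melanomas and 5.22, 5.09 and 4.67 in the proliferations (difference 2.34, SE 0.78, adjusted p = 0.0365, 0.61 without melanoma 2 and 2.18 to 2.45 without a proliferation, not passing in any of these). Summed over 13 neutrophil markers the melanomas gave 1211 and 4186 and the proliferations 731.6 to 915.7. Of 11 dendritic and Langerhans cell markers 2 rose and 3 fell (median -0.18). The Langerhans cell lectin Cd207 fell by 1.42 (SE 0.13, adjusted p = 5.27e-05), and Epcam, which Langerhans and epithelial cells share, fell by 3.13 (SE 0.49, adjusted p = 0.00104).

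The Cdkn2a/Braf melanomas carry by label the alterations of Cdkn2a and Braf without that of Lkb1. Set against the Cdkn2a/Braf/Lkb1 melanomas directly, in a comparison that shares those 2 arrays with the one above, 364 genes were higher with the Lkb1 alteration (1.83%) and 146 lower (0.732%). Without Cdkn2a/Braf melanoma 2 the total of 510 was 135, and the Cdkn2a/Braf pair differed much in epidermal genes, with Krt5 at 5.37 and 9.47. Of the lineage genes, Dct was 5.0 and 5.95 on the 2 reference arrays (difference -0.49, SE 0.27, adjusted p = 0.357), and Tyr was 4.45 and 4.34 (difference -0.24, SE 0.59, adjusted p = 0.869). Without Cdkn2a/Braf melanoma 1 Dct passed at -0.96. Ccnd1 (11.19 and 11.06), Cdh2 (8.76 and 9.18) and Etv1 (10.85 and 10.81) also lay well above the proliferations and differed by 0.20, -0.53 and -0.79 between the melanomas, which did not pass. A missed threshold with 2 arrays against 2 does not show that these levels were equal.

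The genes that were called between the melanomas include cell cycle and protease members. Summed intensities of the mitotic list were 3731 to 8728 in the Cdkn2a/Braf melanomas, overlapping the proliferations (5892 to 7916), and 12320 to 16940 with the Lkb1 alteration. For the list of DNA replication and E2F targets they were 3791 to 6346, 5947 to 7812 and 9427 to 11580 in the same order. E2f8 was 8.22 and 6.52 in the Cdkn2a/Braf melanomas, a difference of 2.50 (SE 0.45, adjusted p = 0.0182), and 5 of 28 mitotic genes were higher with the Lkb1 alteration and none lower. Plk1 (1.52, SE 0.30, adjusted p = 0.0301), Cdc20 (1.53, SE 0.23, adjusted p = 0.00884) and Birc5 (1.79, SE 0.30, adjusted p = 0.0148) were among those 5, whereas Cdk1 was 8.80 and 7.40 and did not pass (1.51, SE 0.41, adjusted p = 0.0833). These calls rest on the second Cdkn2a/Braf array: without it E2f8 was 1.66, Plk1 1.08, Cdc20 1.23 and Birc5 1.29, none of them passing, and without the first one Cdk1 passed at 2.21. E2f8 (2.20), Plk1 (1.28) and Birc5 (1.54) also missed the threshold without Cdkn2a/Braf/Lkb1 melanoma 2.

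Of 26 proteases 5 were higher with the Lkb1 alteration and none lower. Plaur was 6.58 and 6.63 in the Cdkn2a/Braf melanomas, close to the proliferations, with a difference of 1.91 (SE 0.15, adjusted p = 0.000783) that passed whichever melanoma array was left out. Mmp10 was 7.88 and 6.03 (difference 2.39, SE 0.51, adjusted p = 0.039). Mmp1a, which is not on the list of 26, was 6.83 and 6.62, between the proliferations and the melanomas with the Lkb1 alteration (difference 3.11, SE 0.44, adjusted p = 0.00635). Fosl1 was 6.44 and 6.17, again close to the proliferations (difference 1.67, SE 0.28, adjusted p = 0.0129). Without Cdkn2a/Braf melanoma 2 the differences of Mmp1a (3.0), Mmp10 (1.47) and Fosl1 (1.54) did not pass, nor did Mmp10 without Cdkn2a/Braf/Lkb1 melanoma 2 (1.82). Brinp3 (3.54, SE 0.33, adjusted p = 0.00122), 1700012B09Rik (2.67, SE 0.23, adjusted p = 0.000916), Tnc (2.10, SE 0.26, adjusted p = 0.00412) and Tfec (1.95, SE 0.17, adjusted p = 0.000876) were higher with the Lkb1 alteration as well, and these 4 passed whichever melanoma array was left out.

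Of the kinase inhibitors, Cdkn1b was 10.20 and 10.39 in the Cdkn2a/Braf melanomas and 9.17 and 9.20 with the Lkb1 alteration (difference -1.11, SE 0.21, adjusted p = 0.0266), while the proliferations at 8.37, 7.68 and 8.40 were lower still. That call was lost without Cdkn2a/Braf melanoma 2 (-1.02) or either Cdkn2a/Braf/Lkb1 melanoma (-1.10 and -1.12). Of 22 macrophage markers 6 were higher, among them Msr1 (1.44, SE 0.18, adjusted p = 0.00412) and Fcgr1, an antibody receptor (1.43, SE 0.26, adjusted p = 0.0215, lost at 1.42 and 1.44 without the first and the second Cdkn2a/Braf melanoma). Of 32 chemokines 8 were higher, among them Ccl5 (1.71, SE 0.20, adjusted p = 0.0038) and Cxcl5 (2.46, SE 0.49, adjusted p = 0.0312), the latter lost without Cdkn2a/Braf melanoma 2 (1.73) or Cdkn2a/Braf/Lkb1 melanoma 2 (1.73). Summed macrophage intensities were 7548 to 8292 in the Cdkn2a/Braf melanomas against 13730 to 17290, and the part of leukocyte content in these differences was not tested.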

How the data were processed

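Uncultured tissue in 5 samples was compared on Affymetrix arrays. The deposited values are normalized intensities on a linear scale, made by the authors with RMA, per the submitters' processing notes, and the scale was read from the values. From these, log2(intensity + 1) was computed. Of 34760 probe sets 21640 have 1 gene, 1321 several and 11799 none in the annotation used. A gene's probe set was the one with the highest mean over 13 arrays, which gave 19937 genes. All columns had a sample. The main test was limma 3.58.1 (R 4.3.3) on 6 group means over 13 arrays, two-sided, with Benjamini-Hochberg adjustment at 0.05, 7 residual degrees of freedom and no replicate block, and it was checked on simulated data. The few arrays limit the precision. Same-numbered samples did not deviate together (correlations 0.06 and 0.03), so the numbers do not pair them. Named genes were the 12 largest increases and decreases without overlap, the targeted genes and members of the lists. The genes outside this rule, Mmp1b, Mmp20, Mmp27, were chosen after their values were seen, as were the promoter motifs. Groups, lists and tests were chosen with earlier results of these data known. Alternatives changed the scaling, the pseudocount (16), the filter, the probe sets, the moderation, the arrays in the fit and the replicate block, or left out 1 array. Promoters run from 250 bases before to 50 after a start.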

Additional observations from a re-analysis of the deposited data

How the results depend on the processing

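In the comparison of the Cdkn2a/Braf/Lkb1 melanomas with the proliferations, 8090 genes were called, and 4646 under quantile normalization (2203 higher, 2443 lower) and 4575 of 9968 among genes above the median level. Lower genes numbered 2688 with the common interquartile range, 2604 with the log2 filter of 6 and 1195 above the median level. Without 1 array the total ran from 4343 (without melanoma 1) to 7034, higher genes from 2325 to 3459 and lower genes from 2018 to 3575. Between the melanomas the total of 510 was 794 with 7 tissue arrays and, without 1 array, ran from 135 to 737. A group left with 1 array is assumed to vary like the others. With a replicate block the main comparison gave 3331 higher and 3271 lower genes on 13 arrays and 4514 and 3030 on 5, and the comparison between the melanomas gave 259. Over the 205 named genes and their alternatives, 3650 values in all, 3434 kept direction and side of the threshold, 166 lost the call, 21 gained one, 28 changed sign without a call and 1 was reversed, Cdk4 at -0.146 with the common range. Of the 8090 calls, 3940 kept their direction and call with that range and 233 genes were called the opposite way, and 3809 kept them under quantile normalization. The common range also lowered 16 of 17 ribosomal protein genes (median -1.50, against 0.05 as reported). The cause of these changes was not tested. Low signals have no separate detection values here.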

Other observations

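Genes of antiviral defence and antigen presentation showed small and mixed differences. Of 21 interferon-induced genes 8 rose and 1 fell in the Cdkn2a/Braf/Lkb1 melanomas (median 0.51), but 2 rose without melanoma 1 and 4 or 5 without any other single array, and 5 under quantile normalization. Ifit3, an antiviral protein, was 8.59 and 7.88 in the melanomas and 7.08, 6.23 and 6.59 in the proliferations (difference 1.60, SE 0.34, adjusted p = 0.00542, 1.25 and not passing without melanoma 1). Of 9 genes of class I presentation none rose and 3 fell (median -0.32), namely Nlrc5, the activator of class I genes (-1.44, SE 0.17, adjusted p = 0.000217, while its 19 probe sets ran from -0.18 to -1.65 and their mean gave -0.81), Tap1, the peptide transporter (-0.86, SE 0.17, adjusted p = 0.00381), and H2-Q4 (-0.95, SE 0.19, adjusted p = 0.00358), whose family members are alike enough that probes may not separate them. Of 8 class II genes 1 rose, H2-DMa, a peptide exchanger (1.44, SE 0.34, adjusted p = 0.00895), whose difference was 1.33 and did not pass without melanoma 2. With the common range none of the 8 rose and 1 fell.

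Pericyte markers were split. The pericyte gene Rgs5 was 9.40 and 8.96 in the melanomas and 6.68, 6.75 and 6.99 in the proliferations (difference 2.37, SE 0.17, adjusted p = 1.66e-05), while Cspg4, another pericyte marker, fell by 1.07 (SE 0.31, adjusted p = 0.0212), within a list of 10 in which 3 rose and 3 fell. The difference of Cspg4 ranged from -1.28 without melanoma 1 to -0.86 without melanoma 2, and passed in neither, nor without proliferation 1 (-1.05) or 2 (-1.01). Of 11 mast cell markers 3 fell and none rose (none fell and 1 rose without melanoma 2), with the chymase Mcpt4 at 7.53 and 6.0 in the melanomas and 9.11, 9.19 and 8.62 in the proliferations (difference -2.21, SE 0.49, adjusted p = 0.00607). Without melanoma 2 the difference of Mcpt4 was -1.44 and did not pass. In the Cdkn2a/Braf melanomas Mcpt4 was 8.66 and 10.29.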
